A study of Mus musculus with 4 samples.

Results

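The genes of cholesterol synthesis and of fatty acid synthesis were followed in differentiating C2C12 cells, a mouse myoblast line of strain C3H that fuses into myotubes when serum is lowered. The set holds 35 genes of the 49585 in the count files, chosen by symbol for their known roles: 20 of sterol synthesis and transport, 5 of the machinery that controls both pathways, and 10 of fatty acid synthesis, elongation and desaturation. All 35 were among the 15886 genes with enough fragments to be tested. Messenger RNA was sequenced in 2 libraries from cells transduced with the empty retroviral vector pLXSN and 2 from cells transduced to overexpress C/EBPβ, a leucine zipper transcription factor. Both groups were grown in 10% fetal bovine serum, selected as pools with G418 at 1200 µg/ml for 7 days, allowed to proliferate for 2 days and, from 90% confluency, differentiated in 2% horse serum for 2 days. The libraries held between 36461091 and 51537847 fragments assigned to genes. Whether replicate libraries stem from different cultures is not stated in the labels, and p-values therefore reflect library-to-library spread that may be only technical.

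Cholesterol is built from acetyl-CoA through mevalonate, farnesyl diphosphate, squalene and lanosterol, and fatty acids are built from the same acetyl-CoA by carboxylation and repeated condensation. The sterol regulatory element binding proteins (SREBPs) are membrane-bound transcription factors that switch on both pathways: SREBP-2 is known mainly for the sterol genes and SREBP-1 for the fatty acid genes. SCAP escorts them to the Golgi, where they are cut and released, and the INSIG proteins hold SCAP back in the endoplasmic reticulum when sterols are plentiful.

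Cebpb itself was counted at 42.7 and 41.3 CPM (fragment counts scaled to a common library size by TMM) in the empty-vector libraries and at 502 and 442 CPM in the overexpressing libraries. The log2 fold change was 3.49 (SE 0.11, adjusted p = 1.38e-06 by edgeR's quasi-likelihood test). Marker genes were read beside the members. All 10 markers of differentiated muscle fell, and their summed level was 26620 and 30298.5 CPM in the controls against 6868 and 11908 CPM in the overexpressing libraries, led by Acta1 and Myh3. Of 8 markers of cycling cells 7 fell, with Rrm2 and Top2a the most abundant, from sums of 577 and 749 CPM to 340.04 and 312 CPM. Of 9 fat cell markers 4 could be tested and all 4 were higher, with sums of 25.6 and 25.4 against 1512 and 1065 CPM. Lpl and Pparg made up most of that sum, and Lep had no fragment in any library. Adipoq, named after its values were seen, had 1 and 1 fragments in the controls and 18 and 1 in the overexpressing libraries. Plin1 and Fabp4, also named after their values were seen, had 0 and 0, and 2 and 1, fragments in the controls. Both could be tested only through the libraries where they were high, so their direction was fixed in advance. The 8 macrophage markers summed to 8.82 and 7.91 against 44.6 and 41.2 CPM, mostly Lyz2 and Cd14, with Adgre1 at 0 fragments. Of 5 that could be tested, 3 were higher and 1 lower. The lower one was Itgam (19 and 26 fragments against 2 and 8), named after its values were seen. Itgam reached the filter's minimum only with the control libraries, where it was high. Lyz2, with 6 and 4 fragments in the controls, could be tested only through the overexpressing libraries. The filter thus favoured the directions of both. Endothelial markers, of which Tek and Pecam1 were the most abundant and Emcn had 0 fragments, stayed under 1 CPM in sum in every library. Liver markers reached at most 0.0766 CPM in sum (Apoa1 and Ttr), and Alb, Serpina1a, Cyp7a1 and Fgb had 0 fragments. The part of these shifts in the results for the 35 genes was not tested. In these bulk libraries, fewer cells of a type and less RNA per cell cannot be told apart.

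The sterol genes were either lower with C/EBPβ or did not pass the test, and none rose. Of 20, 6 fell by edgeR's quasi-likelihood test at an adjusted p under 0.05: Ebp, Dhcr7, Mvd, Idi1, Fdps and Fdft1. The machinery genes Srebf1, Scap and Insig2 rose, as did Elovl5, Fads1 and Lpin1 of the fatty acid arm, where Scd2 alone fell. In all, 6 members rose and 7 fell, 37.1% of the 35, where the same threshold called 43.3% of all genes tested, 22.4% higher and 20.9% lower. The share of members called was thus no larger than that of the transcriptome at large. The median log2 fold change was -0.29 over the sterol arm, 0.33 over the 5 machinery genes and -0.0046 over the fatty acid arm, beside 0.01 over all genes tested. The difference between the arms was not tested.

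**Figure D1:**
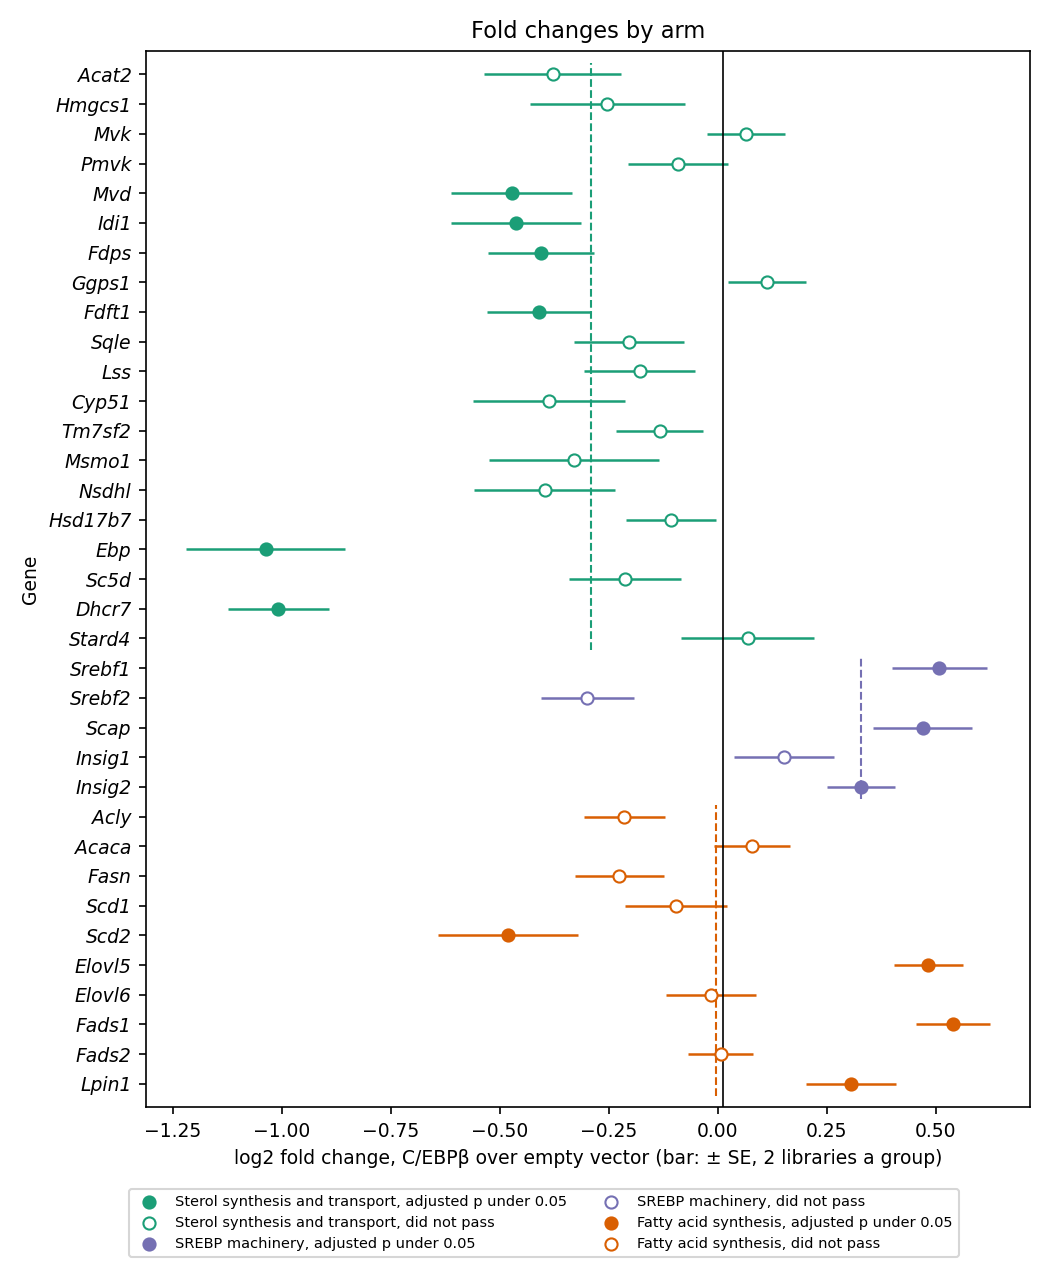
Log2 fold change of each of the 35 genes (x axis, C/EBPβ over empty vector, bars ± SE, 2 libraries a group), with genes on the y axis grouped by arm, filled points for an adjusted p under 0.05, dashed lines for the arm medians and the solid line for the median of all genes. Ebp and Dhcr7 lie near -1, and 17 of the 20 sterol genes lie below 0, while the fatty acid genes lie on both sides.

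Libraries of the same group differed from each other in the sterol genes. Overexpressing replicate 2 lay above replicate 1 for 19 of 20 sterol genes, with a median log2 difference of 0.34, where 49.4% of all genes tested did so. Empty-vector replicate 2 lay above replicate 1 for 18 of 20, with a median of 0.19, against 48.7% of all genes. Both held for 18 of the 20 sterol genes and for 28% of all genes. Among the fatty acid genes, replicate 2 was the higher for 9 of 10 in the overexpressing group and for 3 of 10 in the controls. Overexpressing replicate 1 was the lowest of the 4 libraries for 18 sterol genes and empty-vector replicate 2 the highest for 17. Overexpressing replicate 2 lay above empty-vector replicate 1 for 10 of the 20. Markers also differed between the replicates of a group, the muscle markers in the direction of the sterol genes and the cycling markers so only in the controls. Replicate 2 was higher for 10 of 10 muscle markers in each group, with a median log2 difference of 0.77 in the overexpressing pair and 0.16 in the controls. For the cycling markers it was higher for 8 of 8 in the controls (median 0.43) and for 1 of 8 in the overexpressing pair (median -0.26). The part of either in the result was not tested.

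**Figure D2:**
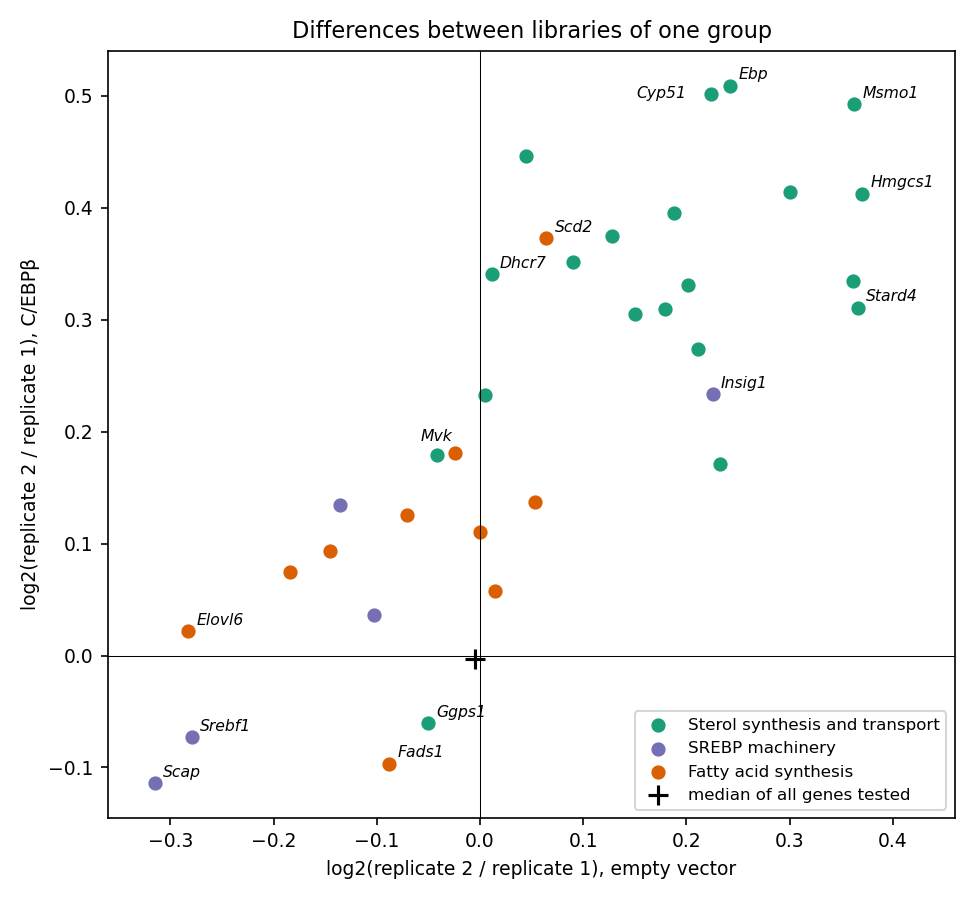
Log2 ratio of replicate 2 to replicate 1 for each of the 35 genes, in the empty-vector group (x axis) and in the C/EBPβ group (y axis), coloured by arm, with a cross at the median of all genes tested. Of the 20 sterol genes 18 sit above 0 on both axes, and 3 of the 10 fatty acid genes do.

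The fraction of each library taken by the sterol arm shows the same overlap. The 20 sterol genes took 0.267% and 0.317% of assigned fragments in the controls and 0.214% and 0.269% in the overexpressing libraries, so that 1 overexpressing library lay slightly above 1 control. The 10 fatty acid genes took 0.512% and 0.517% in the controls and 0.413% and 0.471% in the overexpressing libraries, which did not overlap. Without the desaturases Scd1 and Scd2, which held 71.6% to 77.7% of that sum, the remaining 8 genes took 0.117% and 0.115% against 0.117% and 0.122%. The ratio of fatty acid to sterol fragments was 1.92 and 1.63 in the controls and 1.93 and 1.75 with C/EBPβ, and these ranges overlapped. These sums and ratios are given as values with no test. The smallest 2-sided p that an exact permutation test allows here is 0.333.

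**Figure D3:**
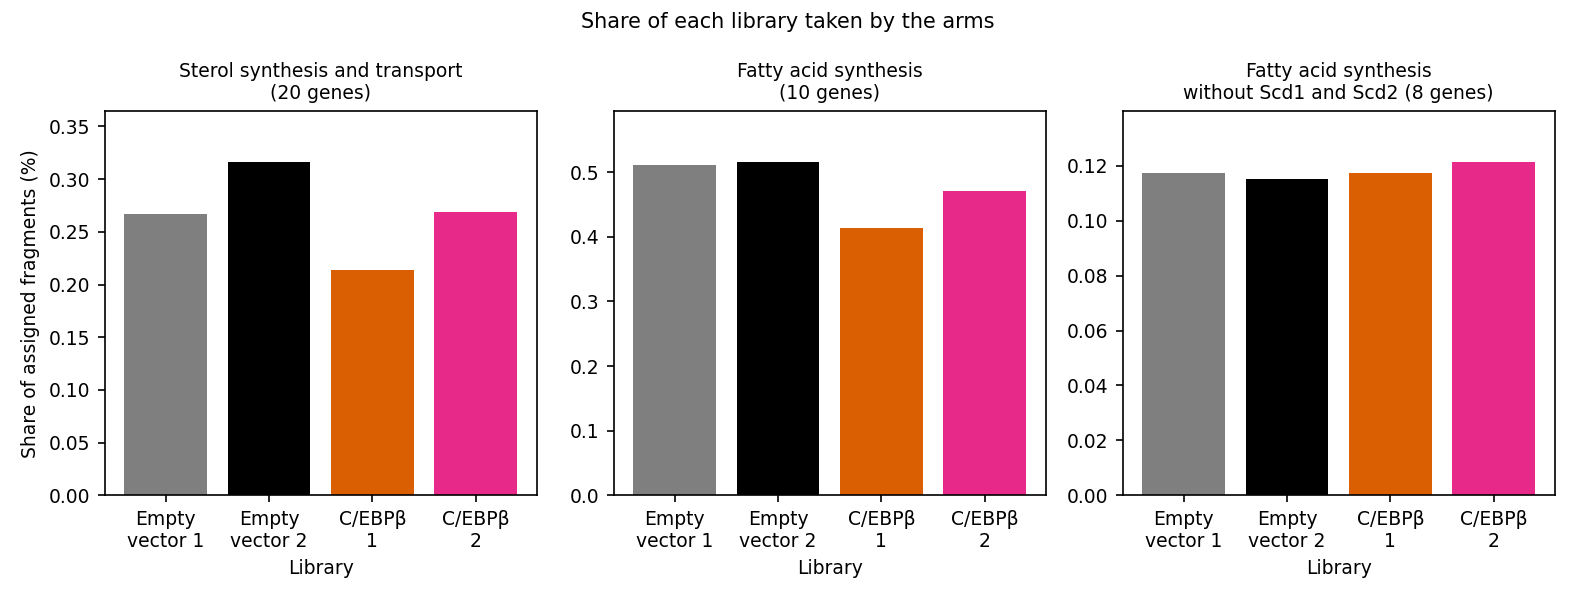
Share of assigned fragments (y axis, %) in each of the 4 libraries (x axis) for the sterol arm, the fatty acid arm, and the fatty acid arm without Scd1 and Scd2, 1 bar per library. The fatty acid bars are lower in both C/EBPβ libraries at 0.413% and 0.471%, the sterol bars overlap between groups, and the bars without the Scd genes lie between 0.115% and 0.122%.

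Within the sterol arm, the first steps make mevalonate and turn it into isoprenoid units. Acat2, the cytosolic thiolase that joins acetyl-CoA units, was counted at 88.0 and 113 CPM in the controls and 68.4 and 86.3 CPM with C/EBPβ (log2 fold change -0.38, SE 0.16, adjusted p = 0.0990). Hmgcs1, the HMG-CoA synthase of the cytosol, stood at 508 and 657 against 419.5 and 558 CPM (-0.25, SE 0.18, adjusted p = 0.294). The control values of Hmgcs1 straddle one of the overexpressing values, whereas both overexpressing libraries were below both controls for Acat2. The next kinases, Mvk and Pmvk, had log2 fold changes of 0.06 (SE 0.09, adjusted p = 0.589) and -0.09 (SE 0.12, adjusted p = 0.559).

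Mvd, which decarboxylates mevalonate diphosphate, was measured at 80.1 and 91.2 CPM in the controls and 53.4 and 70.2 CPM with C/EBPβ, a fall by 0.47 on the log2 scale (SE 0.14, adjusted p = 0.0330). Idi1, the isopentenyl diphosphate isomerase, had 19.9 and 20.5 CPM against 12.5 and 17.0 CPM (fell by 0.46, SE 0.15, adjusted p = 0.0397). Fdps, the farnesyl diphosphate synthase, had 37.6 and 40.0 CPM against 25.8 and 32.9 CPM (fell by 0.41, SE 0.12, adjusted p = 0.0305). In each of these, both overexpressing libraries were below both controls, with replicate 2 the closer to them. Ggps1, which makes geranylgeranyl diphosphate for protein prenylation and so branches off the sterol route, had 22.3 and 21.6 CPM in the controls and 24.2 and 23.2 CPM with C/EBPβ (log2 fold change 0.11, SE 0.09, adjusted p = 0.346). It was the only sterol arm gene with both overexpressing libraries above both controls. The calls of Mvd, Idi1 and Fdps were lost without either control library: without empty-vector replicate 1 the adjusted p was 0.0670, 0.123 and 0.0828, and without empty-vector replicate 2 it was 0.194, 0.171 and 0.159. Without overexpressing replicate 1, Idi1 and Fdps had an adjusted p of 0.195 and 0.144, at log2 fold changes of -0.25 and -0.24, while Mvd passed at 0.0403 with a log2 fold change of -0.29. All 3 passed without overexpressing replicate 2. Fragments of Acat2, Fdps and Idi1 are also uncertain because 39.1%, 26.2% and 17.7% of their 50-base windows occur in transcripts of another gene.

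The squalene steps followed. Fdft1, the squalene synthase that commits farnesyl diphosphate to sterols, was counted at 188 and 217 CPM in the controls and 138 and 167 CPM with C/EBPβ, a fall by 0.41 on the log2 scale (SE 0.12, adjusted p = 0.0259). Both overexpressing libraries were below both controls, and the adjusted p was 0.163 without empty-vector replicate 2. Sqle, the epoxidase regarded as a rate-limiting step, had 335 and 379 against 277 and 343 CPM (log2 fold change -0.20, SE 0.13, adjusted p = 0.230). For Lss, which closes the ring to lanosterol, the values were 141 and 162 against 119 and 149 CPM (-0.18, SE 0.13, adjusted p = 0.293). Neither Sqle nor Lss separated the groups, since overexpressing replicate 2 exceeded empty-vector replicate 1.

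The 8 enzymes from lanosterol to cholesterol all had a log2 fold change below 0, where 48.8% of all genes did. Of these 8, 2 fell (25%), a share near the 20.9% of all genes tested that were called lower. This stretch of the route was set apart post hoc, by textbook order. Ebp, the sterol isomerase that moves the ring double bond, lies on chrX:8185329-8193512 (GRCm38, minus strand). It was counted at 127 and 151 CPM in the controls and 56.0 and 79.8 CPM with C/EBPβ. This is a fall by 1.04 on the log2 scale (SE 0.18, adjusted p = 0.0067), to 0.488 of the control level. Dhcr7, the reductase of the final step from dehydrocholesterol, lies on chr7:143823145-143848410 (plus strand) and had 123 and 124 CPM against 54.1 and 68.6 CPM, a fall by 1.01 on the log2 scale (SE 0.12, adjusted p = 0.000533). For both genes the higher overexpressing library was well below the lower control. The call of Dhcr7 held in each of 13 alternative analyses, and that of Ebp in all but 1, without empty-vector replicate 2, where its log2 fold change was -0.91 and the adjusted p 0.0819.

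None of the other 6 enzymes of this stretch passed the test. Cyp51, the lanosterol demethylase, had 311 and 363 against 214 and 302 CPM (log2 fold change -0.39, SE 0.17, adjusted p = 0.122). Nsdhl, a dehydrogenase of the demethylation complex, had 176 and 217 against 128 and 171 CPM (-0.40, SE 0.16, adjusted p = 0.0938). Both separated the groups without passing the test. Msmo1, the methyl sterol oxidase, had 220.2 and 283 against 166 and 234 CPM (-0.33, SE 0.20, adjusted p = 0.226), with overlap. Sc5d, the desaturase that acts just before Dhcr7, had 93.6 and 102 against 73.7 and 95.5 CPM (-0.21, SE 0.13, adjusted p = 0.222), also with overlap. Tm7sf2, a sterol reductase, and Hsd17b7, a ketoreductase, had log2 fold changes of -0.13 (SE 0.10, adjusted p = 0.313) and -0.11 (SE 0.10, adjusted p = 0.438). For Tm7sf2, 15.3% of the exonic bases lie under Vps51 on the same strand.

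Ratios within a library, which do not depend on how libraries are scaled, were taken between Ebp or Dhcr7 and another enzyme of the route. The pairs were chosen after their values were seen. Ebp fragments per Sqle fragment were 0.381 and 0.398 in the controls and 0.202 and 0.232 with C/EBPβ. Dhcr7 fragments per Sc5d fragment were 1.31 and 1.21 against 0.735 and 0.718. In both ratios the difference between groups was much larger than that between libraries of a group, whereas the single genes Sqle and Sc5d overlapped between groups. Ebp and Dhcr7 had the lowest fold changes of the arm, so these ratios give no support beyond the values of the single genes. Stard4, a carrier that moves cholesterol between membranes and the only transport gene in the arm, had 57.8 and 74.4 CPM in the controls and 61.9 and 76.8 CPM with C/EBPβ (log2 fold change 0.07, SE 0.15, adjusted p = 0.750). Both groups showed a low replicate 1 and a high replicate 2.

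No sterol gene was higher at an unadjusted p under 0.05 either, and none was called higher by DESeq2 or limma-voom. These tools called 7 and 6 of the 20 sterol genes lower, where they called 2960 and 3338 of the 15886 genes tested lower. In either direction they called 37.6% and 43.3% of all genes tested. By separation of the groups alone, both overexpressing libraries were below both controls for 10 sterol genes and above them for 1, with overlap for 9, where 36.7% and 38.4% of all genes tested were separated in these directions. How many sterol genes passed depended on single libraries, and so did the number passing over all genes tested. The arm's median log2 fold change lay between -0.53 and -0.08 when each library was left out in turn.

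**Figure D4:**
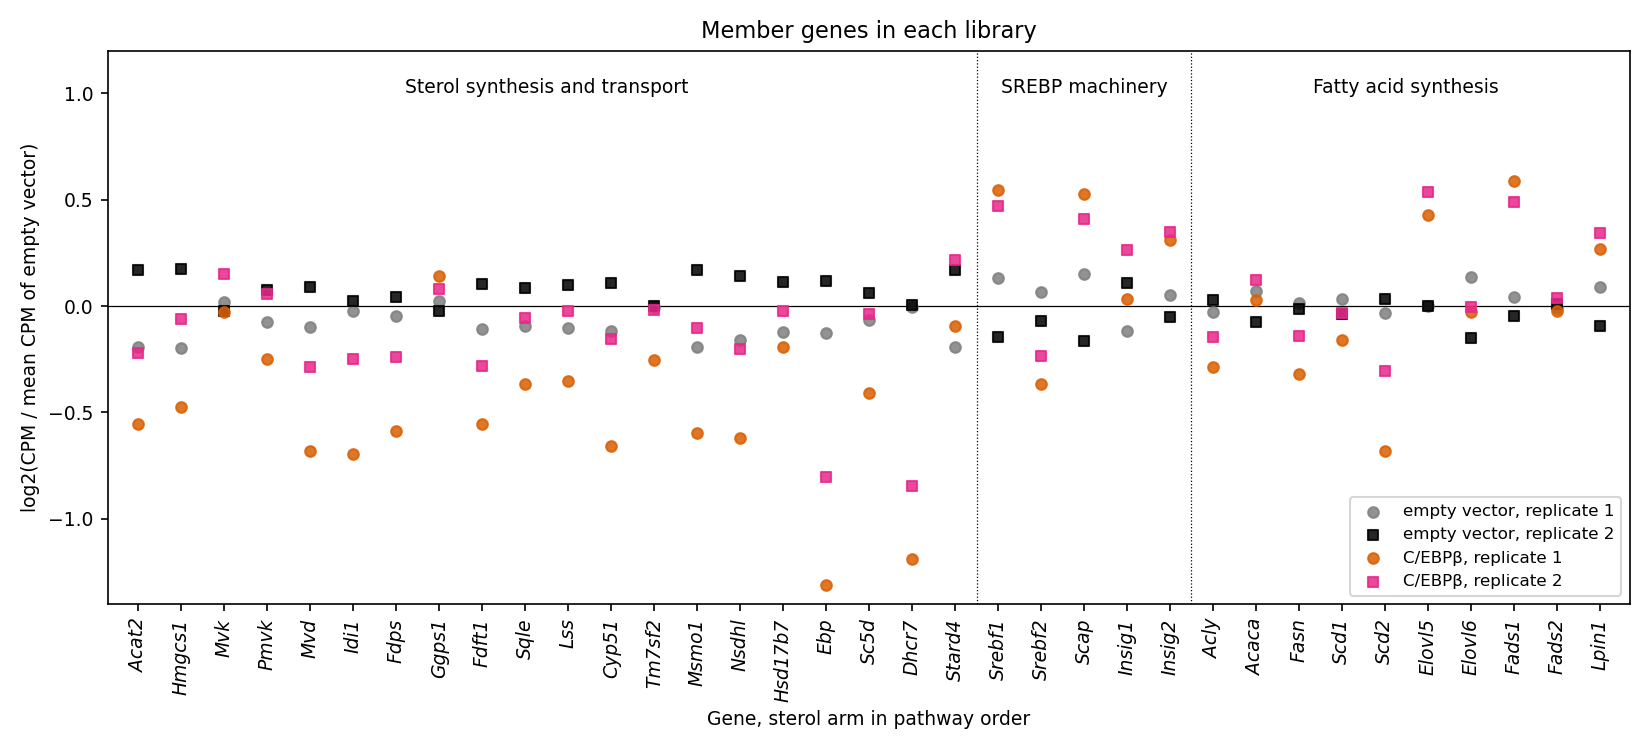
Log2 of the CPM of each of the 35 genes (x axis, sterol arm in pathway order) in each library relative to the mean of the 2 empty-vector libraries (y axis), with circles for replicate 1 and squares for replicate 2. In the sterol arm the C/EBPβ replicate 1 points are the lowest for 18 of 20 genes, and for Ebp and Dhcr7 both C/EBPβ points are far below both controls.

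Promoter sequence was then read for the members with an entry in the RefSeq promoter table (GRCm38.p6), which was the case for 28 of the 35 genes and 36 promoters. The 250 bases before each start were searched on both strands for TCACNCCAC, a form of the sterol regulatory element, CCAAT, the site of the SREBP partner NF-Y, GGGCGG, a Sp1 box, and TTGCNNAA, the core of a C/EBP palindrome. CCAAT was in 15 of 19 sterol promoters (78.9%), in 2 of 7 fatty acid promoters (28.6%) and in 33.8% of all 32851 promoters. GGGCGG was in 15 of 19 sterol promoters and 2 of 7 fatty acid promoters, against 32.7% of all. TCACNCCAC was in 1 sterol promoter, that of Hmgcs1, and 1.05% of all. TTGCNNAA was in 2 sterol promoters, those of Dhcr7 (57 bases before the start) and Nsdhl (19 bases), in none of the machinery or fatty acid promoters, and in 9.56% of all. The CCAAT and TTGCNNAA matches of Nsdhl overlap each other, and no other pair of motifs overlapped. Median GC content was 62.4% for the sterol promoters, 56.4% for the fatty acid promoters and 52.4% for all promoters, and its part in these shares was not tested. A match describes the letters in the window and not binding.

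Shown here are 3 sterol promoters, of a gene that did not pass the test (Hmgcs1) and of 2 that fell (Mvd and Ebp), and the only 2 fatty acid promoters with a CCAAT match, of a gene that did not pass (Fasn) and of one that rose (Elovl5). Each is written 5′ to 3′ on the gene's strand, with capitals marking CCAAT or its reverse complement ATTGG and, in Hmgcs1, the TCACNCCAC match. The windows are chr13:119690101-119690350 (plus strand) for Hmgcs1, chr8:122443423-122443672 (minus) for Mvd, chrX:8193513-8193762 (minus) for Ebp, chr11:120824548-120824797 (minus) for Fasn and chr9:77917115-77917364 (plus) for Elovl5, whose last base is exonic in the annotation of the counts.
Hmgcs1: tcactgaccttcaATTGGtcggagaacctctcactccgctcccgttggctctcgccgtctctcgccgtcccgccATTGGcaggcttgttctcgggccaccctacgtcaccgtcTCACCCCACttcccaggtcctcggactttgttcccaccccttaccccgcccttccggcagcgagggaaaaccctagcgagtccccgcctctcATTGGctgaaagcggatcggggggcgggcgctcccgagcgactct
Mvd: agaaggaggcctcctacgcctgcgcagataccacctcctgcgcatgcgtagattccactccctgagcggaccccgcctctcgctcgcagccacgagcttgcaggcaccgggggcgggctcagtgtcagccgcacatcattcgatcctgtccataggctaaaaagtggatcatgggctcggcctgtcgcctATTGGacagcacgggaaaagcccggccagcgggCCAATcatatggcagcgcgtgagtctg
Ebp: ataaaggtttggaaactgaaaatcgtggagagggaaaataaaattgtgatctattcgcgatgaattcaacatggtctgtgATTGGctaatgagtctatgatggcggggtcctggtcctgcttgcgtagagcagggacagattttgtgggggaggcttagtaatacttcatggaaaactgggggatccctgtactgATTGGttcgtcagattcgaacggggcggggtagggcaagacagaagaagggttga
Fasn: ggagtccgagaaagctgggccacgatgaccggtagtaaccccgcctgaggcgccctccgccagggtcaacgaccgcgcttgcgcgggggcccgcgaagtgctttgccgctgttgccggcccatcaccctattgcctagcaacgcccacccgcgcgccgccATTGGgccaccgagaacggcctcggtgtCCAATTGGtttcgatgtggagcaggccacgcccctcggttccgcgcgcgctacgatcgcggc
Elovl5: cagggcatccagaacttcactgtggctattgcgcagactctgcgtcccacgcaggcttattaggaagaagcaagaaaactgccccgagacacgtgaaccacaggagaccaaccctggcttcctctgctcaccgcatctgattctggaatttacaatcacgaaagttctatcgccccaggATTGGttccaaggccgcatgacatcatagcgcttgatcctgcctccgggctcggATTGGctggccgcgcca
The Hmgcs1 window holds 3 CCAAT matches and the sterol element, and those of Mvd, Ebp and Elovl5 hold 2 CCAAT matches each. In Fasn there are 3, of which 2 lie on opposite strands of a single run and overlap. These promoters were picked with calls and matches known and do not compare the calls. Over all members with an entry, CCAAT was in 4 of 6 promoters of genes that fell and 4 of 10 promoters of genes that rose. The share over all promoters was 33.8%.

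In the machinery that controls both arms, 3 of 5 genes rose, where 22.4% of all genes tested did. With only 5 genes, the difference from that share was not tested. Srebf1, which encodes SREBP-1, was counted at 187 and 154 CPM in the controls and 249 and 237 CPM with C/EBPβ (log2 fold change 0.51, SE 0.11, adjusted p = 0.0075). Srebf2, which encodes SREBP-2, had 582 and 529.9 CPM against 431 and 473 CPM (-0.30, SE 0.11, adjusted p = 0.0529). The groups did not overlap for either gene, with Srebf1 higher and Srebf2 lower in the overexpressing libraries. Srebf2 missed the threshold here but passed it with DESeq2 (adjusted p = 0.0177) and with limma-voom (adjusted p = 0.0447). There were 3.11 and 3.43 Srebf2 fragments per Srebf1 fragment in the controls and 1.73 and 2.00 with C/EBPβ. Per kilobase of exon, Srebf2 was at 111 ± 7.39 CPM in the controls and 90.6 ± 5.97 CPM with C/EBPβ, and Srebf1 at 30.3 ± 4.13 and 43.1 ± 1.54 CPM (SD, n = 2), so the level of Srebf2 remained the higher in both groups.

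Scap, the escort of both SREBPs, had 64.0 and 51.5 CPM in the controls and 83.1 and 76.8 CPM with C/EBPβ (log2 fold change 0.47, SE 0.11, adjusted p = 0.0129). Insig2, a retention protein, had 75.8 and 70.6 against 90.8 and 93.0 CPM (0.33, SE 0.08, adjusted p = 0.0116). Insig1, the other retention protein and itself a known SREBP target, had 166 and 194 against 184 and 216 CPM (0.15, SE 0.11, adjusted p = 0.318). Both overexpressing libraries exceeded both controls for Scap and Insig2, while Insig1 overlapped and, like the sterol genes, was higher in replicate 2 of each group. Without empty-vector replicate 2 the adjusted p was 0.0587 for Srebf1, 0.0675 for Scap and 0.0889 for Insig2, and without overexpressing replicate 1 it was 0.0498 for Insig1.

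In the fatty acid arm, the enzymes of supply and synthesis did not pass the test. Acly, which releases cytosolic acetyl-CoA from citrate, had 311 and 323 CPM in the controls and 260.1 and 286 CPM with C/EBPβ (log2 fold change -0.21, adjusted p = 0.101). Fasn, the fatty acid synthase, had 438 and 430.5 CPM against 348 and 394 CPM (-0.23, adjusted p = 0.110). Both were lower in the 2 overexpressing libraries than in either control, and both passed when overexpressing replicate 2 was left out. Acaca, the acetyl-CoA carboxylase that makes malonyl-CoA, had 46.1 and 41.7 against 44.9 and 47.9 CPM (0.08, adjusted p = 0.504), with overlap. A share of 30.4% of the 50-base windows of Acaca occurs in another gene's transcripts, so its level is uncertain.

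Among the desaturases that place the first double bond, Scd2 and Scd1 were the most abundant members per kilobase of exon. Scd2 stood at 521 ± 16.5 CPM per kilobase in the controls and 373 ± 67.8 with C/EBPβ, and Scd1 at 251 ± 8.65 and 235 ± 14.5 (SD, n = 2). In CPM, Scd2 was at 2779 and 2906 in the controls and 1774 and 2297 with C/EBPβ, a fall by 0.48 on the log2 scale (SE 0.16, adjusted p = 0.0425). Scd1 was at 1245 and 1186 against 1088 and 1187 CPM (log2 fold change -0.10, adjusted p = 0.546), with overlap. Scd2 fragments per Scd1 fragment were 2.23 and 2.45 in the controls and 1.63 and 1.93 with C/EBPβ. The balance between these 2 genes of chromosome 19 thus differed between the groups without overlap, which was not tested. Such separation is common here, as single genes showed it for 38.4% (higher) and 36.7% (lower) of all genes tested. The call of Scd2 was lost without empty-vector replicate 1 (adjusted p = 0.138), empty-vector replicate 2 (0.201) or overexpressing replicate 1 (0.152, log2 fold change -0.31), and without robust estimation (0.0895).

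The 3 genes of the arm that rose were Elovl5, Fads1 and Lpin1. Elovl5, an elongase of polyunsaturated fatty acids (chr9:77917364-77984519, plus strand), had 82.8 and 82.8 CPM in the controls and 111 and 120.1 CPM with C/EBPβ (log2 fold change 0.48, SE 0.08, adjusted p = 0.0023). Fads1, the delta-5 desaturase (chr19:10182888-10196870, plus strand), had 126 and 119 against 184 and 172 CPM (0.54, SE 0.08, adjusted p = 0.0019). Both were well separated between the groups, and both calls held in each of the 13 alternative analyses, where among the 13 members called only Dhcr7 did the same. Fads2, the delta-6 desaturase that lies beside Fads1 on chromosome 19, had 91.4 and 92.4 CPM against 90.5 and 94.2 CPM (0.01, adjusted p = 0.953). Its overexpressing libraries enclosed both controls, and the difference between the fold changes of Fads1 and Fads2 was not tested. Elovl6, which elongates saturated fatty acids, had 82.0 and 67.4 against 73.3 and 74.5 CPM (-0.02, adjusted p = 0.918).

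Lpin1, a phosphatidate phosphatase that makes diacylglycerol and is a known SREBP target, had 19.2 and 16.9 CPM in the controls and 21.8 and 22.9 CPM with C/EBPβ (log2 fold change 0.31, SE 0.10, adjusted p = 0.0458). The groups were separate but the call was near the threshold, and it was lost in 6 of 13 alternative analyses. Its adjusted p was 0.0551 without empty-vector replicate 1, 0.257 without empty-vector replicate 2, 0.140 without overexpressing replicate 2 and 0.0920 with DESeq2.

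The authors' deposited table of a Cebpb overexpression comparison called 5 of the 35 members higher and 16 lower at an adjusted p under 0.05, where it called 16.1% and 20.9% of its 18378 rows, 37% in all. Of the 20 sterol genes, 12 were lower and none higher in the authors' deposited table, and 25 of the 35 calls were the same as here. Of the others, 9 passed only in the authors' deposited table, namely Acat2, Hmgcs1, Sqle, Cyp51, Msmo1, Nsdhl, Srebf2, Acly and Fasn, and Lpin1 passed only here. The authors' deposited table gave every member a lower log2 fold change than the present fit, by a median of 0.06 in size. For Dhcr7 the authors' deposited table has -1.07 (SE 0.12, adjusted p = 2.81e-16) and for Ebp -1.09 (SE 0.16, adjusted p = 5.42e-11). The mean signal in the authors' deposited table was 36.5 to 56.9 times the mean CPM of the 4 libraries across the 35 members, from Tm7sf2 to Fads2. A mean over these 4 libraries alone, as counted here, would give a nearly constant ratio. The authors' libraries or their counts may differ from these, which was not tested. The p-values of the authors' deposited table are therefore not directly comparable with those given here.

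Other genes of these pathways were counted from lists of textbook members. Among 15 further sterol and isoprenoid genes tested of 18 listed, 1 rose and 5 fell, 40% called where 43.3% of all genes were. Cyp46a1, the cholesterol hydroxylase known from neurons, fell by 0.98 (SE 0.15, adjusted p = 0.0017) from a low 8.08 ± 0.35 CPM, and Dhdds, a subunit of the dolichol-forming prenyltransferase, fell by 0.37 (SE 0.08, adjusted p = 0.0072). Both overexpressing libraries were below both controls for Cyp46a1 and Dhdds. The gene that rose was Nus1, the partner of Dhdds, and Pdss2 and Ch25h were among those that fell, these 3 named after their values were seen.

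Among 15 tested genes of sterol efflux and lipoprotein handling (16 listed), 5 rose and 3 fell, 53.3% against the 43.3% of all genes. Abca1, the exporter of cholesterol to apolipoprotein, had 2.33 and 1.80 CPM in the controls and 10.4 and 6.92 CPM with C/EBPβ (log2 fold change 2.08, SE 0.24, adjusted p = 0.000658). Abcg1, a second exporter, had 3.70 and 2.49 against 8.61 and 7.79 CPM (1.41, SE 0.20, adjusted p = 0.0012). Npc2, the sterol carrier of the lysosome, had 470.4 and 439 against 845 and 740.3 CPM (0.80, SE 0.11, adjusted p = 0.0012). All 3 were separate between the groups, and each was higher in replicate 1 than in replicate 2 of both groups, the reverse of the order in most sterol genes. Chosen after their values were seen, Vldlr and Lrp1 complete the rises, and Soat1, Lcat and Scarb1 are those that fell. Of 12 tested genes of SREBP processing and of other regulators of lipid synthesis (14 listed), 2 rose and 4 fell, 50% against 43.3%. Pgrmc1, a sterol-binding membrane protein, rose by 0.54 (SE 0.08, adjusted p = 0.0019), Mbtps1, the protease that makes the first cut in SREBPs, rose by 0.39 (SE 0.10, adjusted p = 0.0147), and Mid1ip1, a partner of acetyl-CoA carboxylase, fell by 0.44 (SE 0.11, adjusted p = 0.0141). The others that fell were Erlin2 and Vcp, which act in protein degradation at the endoplasmic reticulum, and Mlx, the partner of the carbohydrate-responsive factor ChREBP, also named after their values were seen.

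Of 23 further fatty acid genes tested (26 listed), 8 rose and 5 fell, 56.5% called beside 43.3% of all genes. Elovl4, an elongase of very long chains, had 4.38 and 3.66 CPM in the controls and 25.04 and 22.5 CPM with C/EBPβ (log2 fold change 2.57, SE 0.13, adjusted p = 1.42e-05). Hacd4, a dehydratase of the elongation cycle, had 21.6 and 19.0 against 59.6 and 52.7 CPM (1.47, SE 0.10, adjusted p = 5.03e-05). Slc25a1, the citrate carrier of mitochondria that supplies Acly, had 45.2 and 44.4 against 66.9 and 67.03 CPM (0.58, SE 0.07, adjusted p = 0.000762). The fitted rises of these 3 were above those of the members Elovl5 and Fads1, and the groups were far apart. Slc25a1 was close to Fads1 (0.54, SE 0.08), and the differences between these genes were not tested. The falls, named after their values were seen, were those of Elovl7, Hacd1, Hsd17b12, Scd3 and Fads3. Scd3 had 19 and 18 fragments in the controls and 8 and 5 with C/EBPβ. It could be tested only through the controls, where it was high, so its direction was fixed in advance. Of 18 glycerolipid genes tested (19 listed), 6 rose and 5 fell, 61.1% called beside the same 43.3%. Acsl1, an acyl-CoA synthetase, rose by 0.75 (SE 0.08, adjusted p = 0.000403), Dgat2, an enzyme of the last step to triglyceride, rose by 0.85 (SE 0.13, adjusted p = 0.0016), and Agpat3, an acyltransferase of phospholipid synthesis, fell by 0.63 (SE 0.10, adjusted p = 0.0016). Acsl3, Acsl4, Acsl6 and Agpat4 were the others that fell, chosen after their values were seen.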

How the data were processed

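Differentiating C2C12 libraries (2 with the empty vector, 2 with C/EBPβ) were grouped by their titles. Raw counts of fragments for every gene were deposited by the authors, 1 file per library. According to the submitters' processing notes, HISAT2 2.0.4 aligned the reads to GRCm38 and featureCounts 1.4.6 counted them, although featureCounts 1.5.1 stands in the file headers. Counting was reverse-stranded against GENCODE M12 per the file headers, and the command holds no setting for multi-mapping fragments, whose omission by default lowers counts of genes with near-identical copies. The authors also deposited a table of their comparison. Per the file headers it gives each gene's mean normalised signal, the log2 fold change, its error and a test score. Raw and adjusted p-values complete the authors' table. DESeq2 is named in the submitters' processing notes without a version.

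Of 49585 genes, 15886 passed edgeR's filterByExpr (minimum count 10, minimum total 15). Counts were scaled by TMM and fitted in edgeR 4.0.16 under R 4.3.3 with the robust form of glmQLFit. The 2-sided glmQLFTest was adjusted by Benjamini-Hochberg over all genes tested, with a threshold of 0.05. Standard errors follow from the F statistic. The biological coefficient of variation common to all genes was 9.42%. No library was a copy of its replicate, with a chi-square per degree of freedom of 19.4 for the controls and 27.7 for the overexpressing pair. Alternatives covered scaling, filters, DESeq2 1.42.0, voom in limma 3.58.1, estimation, a replicate block and leaving out each library, 12 in all, and 1 more (the older quasi-likelihood method) was chosen after seeing the data. The method was tested on simulated data. CPM per kilobase uses the deposited exonic length.

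The members and lists were chosen with earlier results of these data known. Named were all 35 members, Cebpb, the 3 genes with the smallest p in each companion list, and, in each marker list, the 2 most abundant genes and those without a fragment. The values of 1 gene so chosen are not reported here, although counts of genes include it. Sharing of sequence was measured over 50-base windows of annotated transcripts.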

Additional observations from a re-analysis of the deposited data

How the results depend on the processing

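With 2 libraries a group, single libraries decided many calls. Leaving out each in turn gave 4013 to 7541 genes past the threshold (2158 to 3795 higher, 1855 to 3746 lower), 3 to 23 members (2 to 7 higher, 1 to 18 lower), 1 to 14 sterol genes (0 higher) and 2 to 5 fatty acid genes (2 to 3 higher, 0 to 3 lower). The median log2 fold change then ran from -0.53 to -0.082 for the sterol arm and from -0.061 to 0.063 for the fatty acid arm. In such fits the lone library is assumed to vary like the other group. With library sizes alone the fatty acid median was 0.050. Under the scaling, filter and tool alternatives, the counts past the threshold in the whole list and in each arm, both directions together, stayed within 1.5 times of those reported. Without robust estimation no fatty acid gene was lower, instead of 1 (Scd2).

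Equal replicate numbers are not stated to mark a shared culture, and deviations of same-numbered libraries correlated at r = 0.186 across genes. With the replicate number as a block, 7599 genes, 17 members and 10 sterol genes passed, all 10 lower. The 4 sterol genes gained were Acat2 (adjusted p = 0.0033), Nsdhl (0.0045), Msmo1 (0.0125) and Cyp51 (0.0128).

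Values near 0 changed sign. Elovl6 was 0.039 with library sizes alone, and Fads2 was -0.0027 with median-ratio size factors, -0.0028 with DESeq2 and -0.0025 without a filter. With single libraries left out the range was -0.15 to 0.13 for Elovl6, -0.041 to 0.037 for Fads2, -0.22 to 0.014 for Hsd17b7, -0.045 to 0.15 for Mvk, -0.27 to 0.057 for Pmvk and -0.11 to 0.26 for Stard4. None of these genes passed in the reported fit, and the cause was not tested.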
